A study of Bos grunniens with 18 samples.

Results

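The genes of glutathione metabolism were followed through a map of N6-methyladenosine (m6A), a base modification of messenger RNA in which adenosine carries a methyl group, along the yak epididymis. The members are the 55 of 18467 genes in the deposited gene table whose pathway annotation holds glutathione metabolism. The rule that chose them uses annotation alone and no measured value, but it was set with earlier results of these data known. GCLM and GSTO1 are among them. The 55 identifiers carry 49 symbols when letter case is ignored, since GSR, GSTM1, GSTP1, GSTT4, ODC1 and PRDX6 are each given to 2 identifiers. Whether such identifiers are copies in sequence was not examined. Copies can share reads, so values of these genes and of the clustered transferases are uncertain to that extent.

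The tissue came from 6 healthy male yaks (Bos grunniens), 4 years old, and the labels name no treatment or altered allele. The epididymis, where sperm from the testis mature and are stored, was divided into head (caput), body (corpus) and tail (cauda). Each region gave 3 libraries enriched with an antibody against m6A (RIP) and 3 unenriched libraries (input), all from poly(A) RNA. How the animals map to libraries is not in the labels, so replicates may be technical. Each region is whole tissue, so fewer cells of a type and less RNA per cell cannot be told apart.

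Glutathione is a small thiol peptide that serves cells as their main soluble reductant. Glutamate-cysteine ligase, made of the catalytic subunit GCLC and the modifier subunit GCLM, and glutathione synthetase (GSS) make it. Peroxidases oxidise it while removing peroxides, glutathione reductase (GSR) returns it to the reduced form with NADPH, transferases attach it to reactive compounds, and gamma-glutamyl transferases start its breakdown outside the cell. In the epididymis it is known for protecting the unsaturated lipids of sperm membranes, and the peroxidase GPX5 is secreted there into the duct. The annotation also places polyamine synthesis and ribonucleotide reductase in this pathway.

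In what follows a site is a whole peak of the authors' comparison tables, which give 1 fold, 1 p and 1 adjusted p per site for each pair of regions and no values per library. No replicate error can therefore be given, and the depth behind a site is unknown. The sources used here do not state whether the folds are relative to input, so methylation and transcript level cannot be told apart in them. A site is called higher or lower when the authors' deposited table gives it an adjusted p under 0.05. A candidate is a single adenosine in the authors' per-region list, with a prediction score, and is classed by them as an m6A site from a score of 0.557. A position had the same highest score in every region that listed it, so a score does not measure how strongly a region was methylated. Coordinates count from 1, on a build that the sources used here do not name, and gene structure (exon, intron, UTR) was not analysed here.

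m6A sites were found in 25 of the 55 members (45.5%), while 51.1% of all genes in the table had a site in at least 1 comparison. By role, the enzymes of reduction and NADPH supply had sites in 5 of 6 members, among them PGD (phosphogluconate dehydrogenase), the isocitrate dehydrogenases IDH1 and IDH2, and 1 of the 2 GSR identifiers. Synthesis and breakdown genes had sites in 6 of 12, namely GCLC, GCLM, GSS, the gamma-glutamyl transferase GGT6, and GGCT and CHAC2, enzymes that cleave gamma-glutamyl peptides inside the cell. The transferases had sites in 9 of 18: GSTA1, GSTA4, GSTK1, 1 of 2 GSTM1 identifiers, Gstm5, GSTO1, Gstt3, 1 of 2 Gstt4 identifiers and MGST2.

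Sites were found in 3 of 10 peroxidases. These were GPX3, a secreted peroxidase, GPX8 of the endoplasmic reticulum, and 1 of 2 identifiers of PRDX6, a peroxiredoxin that takes its electrons from glutathione. GPX1, GPX2, GPX4, GPX5, GPX6 and GPX7 had none. The polyamine and ribonucleotide reductase genes had sites in 2 of 7, SMS (spermine synthase) and Rrm1 (the catalytic subunit of ribonucleotide reductase). The remaining 2 members, TXNDC12 and NAT8B, had none. GGT1 and both ODC1 identifiers, the entry enzymes of glutathione breakdown and of polyamine synthesis, also had none. A gene without a site is not shown to be unmethylated, since a transcript must be abundant enough for a peak to be found and levels were not used here.

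The 25 genes gave 72 site values in the 3 comparisons, at 54 different spans. In bases without introns the sites ran from 145 to 695, and 63 of the 72 absolute log2 folds per the authors' deposited table were under 0.5. A called difference was found at 5 of the 72, in SMS (corpus and cauda over caput), GCLM, GSTO1 and Rrm1. Only the SMS site in the cauda, among these 5, differed at least 2-fold. The share called over all sites was 2.98% in corpus over caput, 2.27% in cauda over caput and 1.96% in cauda over corpus. The comparisons share regions, so the 5 calls are not independent.

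**Figure D1:**
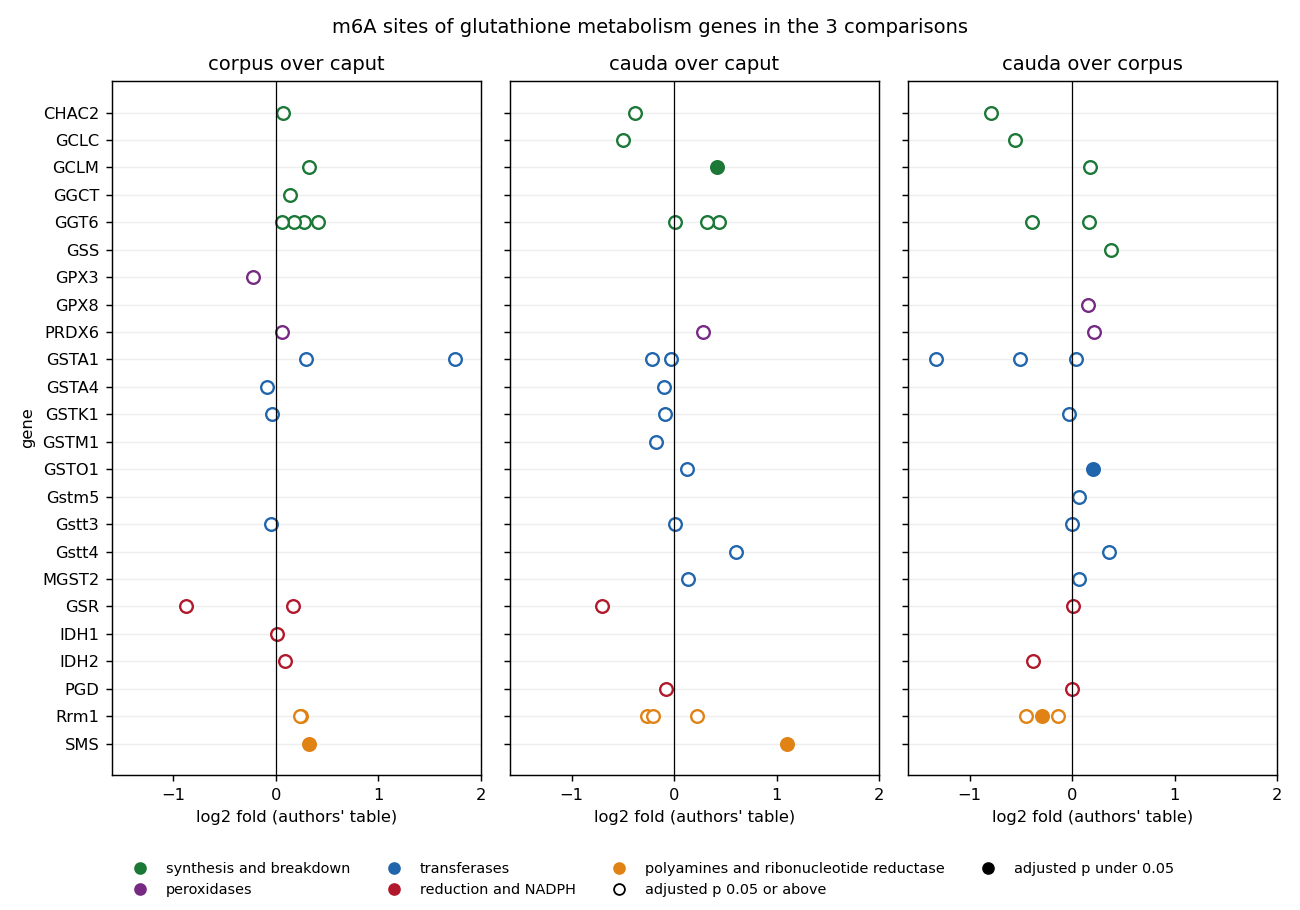
Log2 folds of the members' sites per the authors' deposited tables (x axis), by gene (y axis, ordered and coloured by role), with 1 panel per comparison of regions, for 24 of the 25 genes with a site; each circle is 1 site, filled where the adjusted p is under 0.05. The filled circles are SMS (0.32 and 1.10), GCLM (0.41), GSTO1 (0.21) and Rrm1 (-0.29), while the largest open ones belong to GSTA1 (1.75 and -1.33).

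The corpus was compared with the caput over 24 member sites in 16 of the 55 genes; 42.4% of all genes had a site there. SMS, the gene of spermine synthase, was higher in the corpus, with a log2 fold of 0.32 (p = 3.5e-04, adjusted p = 0.024 per the authors' deposited table), on chromosome X from 132943682 to 132954978 (minus strand). This was the single called site of the 24 (4.17%), where 2.98% of all 14061 sites were called (1.12% higher and 1.86% lower), so the share was near that of all sites. The authors' deposited table put 5 member sites at an unadjusted p under 0.05 (20.8%, against 16.4% of all sites), 4 with positive and 1 with negative folds; of all sites 7.21% were positive and 9.24% negative at that threshold. Besides SMS they belonged to GSTA1, GCLM, Rrm1 and GSR, and none of these was called.

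The GSTA1 site, on chromosome 24 from 9640132 to 9646705 (plus strand), had a log2 fold of 1.75 and an adjusted p of 0.063 per the authors' deposited table. Its 4 candidates were listed in the cauda alone. GSTA1 is an alpha-class transferase, and this was the 1 member site of the comparison that differed at least 2-fold. No member site was both called and at least 2-fold different, as 0.718% of all sites were, and 2 were at an adjusted p under 0.1, as 4.53% of all sites were. GCLM had a log2 fold of 0.32 (adjusted p = 0.15) per the authors' deposited table. Rrm1 had 0.25 (adjusted p = 0.21) and GSR -0.88 (adjusted p = 0.25) per the authors' deposited table. Over all 24 sites the log2 folds per the authors' deposited table had a median of 0.080, and 18 were positive (75%). The median over all sites was -0.02, with 47.5% positive. All 7 sites of synthesis and breakdown genes had positive folds, from 0.063 to 0.41 per the authors' deposited table, and 0 of them was called (1 at an unadjusted p under 0.05, that of GCLM). Of these 7 sites 4 lie in GGT6, so they are not 7 separate genes.

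The cauda was compared with the caput over 23 member sites in 18 of the 55 genes; 42.8% of all genes had a site there. Spermine synthase again had the lowest p of the members: the SMS site, on chromosome X from 132943682 to 132955028 (minus strand), was higher in the cauda, at a log2 fold of 1.10 (p = 8.7e-08, adjusted p = 6.3e-05 per the authors' deposited table). By p it ranked 23 of 13826 sites per the authors' deposited table. GCLM, on chromosome 3 from 53971309 to 53978251 (plus strand), was higher by 0.41 (p = 3.3e-05, adjusted p = 0.0066 per the authors' deposited table) and ranked 86. These 2 called sites made up 8.70% of the 23, where 2.27% of all sites were called (1.41% higher and 0.861% lower). The same 2 sites were found at an adjusted p under 0.1 (4.37% of all sites), and SMS was called and at least 2-fold different, as 0.448% of all sites were. With 2 sites, this difference in shares rests on SMS and GCLM alone.

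With an unadjusted p under 0.05 there were 8 member sites per the authors' deposited table (34.8%, against 17.2% of all sites), 5 positive and 3 negative; of all sites 10.5% were positive and 6.68% negative at that threshold. GGT6 had a log2 fold of 0.44 (adjusted p = 0.17), PRDX6 0.28 (adjusted p = 0.27) and MGST2, a membrane-bound transferase, 0.14 (adjusted p = 0.16) per the authors' deposited table. GCLC had -0.50 (adjusted p = 0.32), GSTM1 -0.18 (adjusted p = 0.15) and PGD -0.078 (adjusted p = 0.34) per the authors' deposited table. The subunits of glutamate-cysteine ligase thus had folds of opposite sign, of which that of GCLM was called; whether the subunits differed from each other was not tested. All 23 sites together had a median log2 fold of -0.031 per the authors' deposited table, with 11 positive; over the 8 unspliced sites it was 0.15. Over all sites of the comparison it was 0.043, with 54.9% positive. All 3 sites of reduction and NADPH genes had negative folds, among them GSR with -0.70 and PGD with -0.078 per the authors' deposited table, and 0 was called (1 at an unadjusted p under 0.05).

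The cauda was compared with the corpus over 25 member sites in 19 of the 55 genes; 42.2% of all genes had a site there. GSTO1, an omega-class transferase with thiol transfer activity, was higher in the cauda, at a log2 fold of 0.21 (p = 4.4e-04, adjusted p = 0.035 per the authors' deposited table), on chromosome 25 from 27034677 to 27038306 (plus strand). Rrm1 was lower, with a log2 fold of -0.29 (p = 7.2e-04, adjusted p = 0.047 per the authors' deposited table), on chromosome 13 from 35723066 to 35729477 (plus strand). Neither reached a 2-fold difference, while 0.338% of all sites did so and were called. The 2 calls were 8.0% of the 25 sites, where 1.96% of all 13917 sites were called (1.24% higher and 0.719% lower). This difference in shares rests on GSTO1 and Rrm1 alone, whose folds had opposite signs.

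The Rrm1 site farther along the gene, from 35738389 to 35738538, had a log2 fold of -0.45 (adjusted p = 0.098) and a site nearer the start, from 35710625 to 35713666, -0.14 (adjusted p = 0.97) per the authors' deposited table. All 3 Rrm1 sites of this comparison were thus negative, and 1 was called. In cauda over caput, parts of the called span were given as separate sites with folds of opposite sign. These were -0.26 (35723066 to 35726364, adjusted p = 0.39) and 0.22 (35729072 to 35729477, adjusted p = 0.57) per the authors' deposited table. At an adjusted p under 0.1, 3 member sites were found (3.46% of all sites). An unadjusted p under 0.05 was found at 7 member sites per the authors' deposited table (28.0%, against 16.4% of all sites), 3 positive and 4 negative; of all sites 9.71% were positive and 6.68% negative at that threshold. GSS had 0.38 (adjusted p = 0.15), IDH2 -0.38 (adjusted p = 0.23), GSTA1 -1.33 (adjusted p = 0.29) and MGST2 0.064 (adjusted p = 0.34) per the authors' deposited table. The median log2 fold of the 25 sites per the authors' deposited table was -0.0029, with 11 positive, and over all sites of the comparison it was 0.046, with 55.9% positive. SMS had no site in this comparison. Its folds over the caput, 0.32 in the corpus and 1.10 in the cauda per the authors' deposited table, are for spans that differ by 50 bases of length and share the caput libraries, and the difference between them was not tested.

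**Figure D2:**
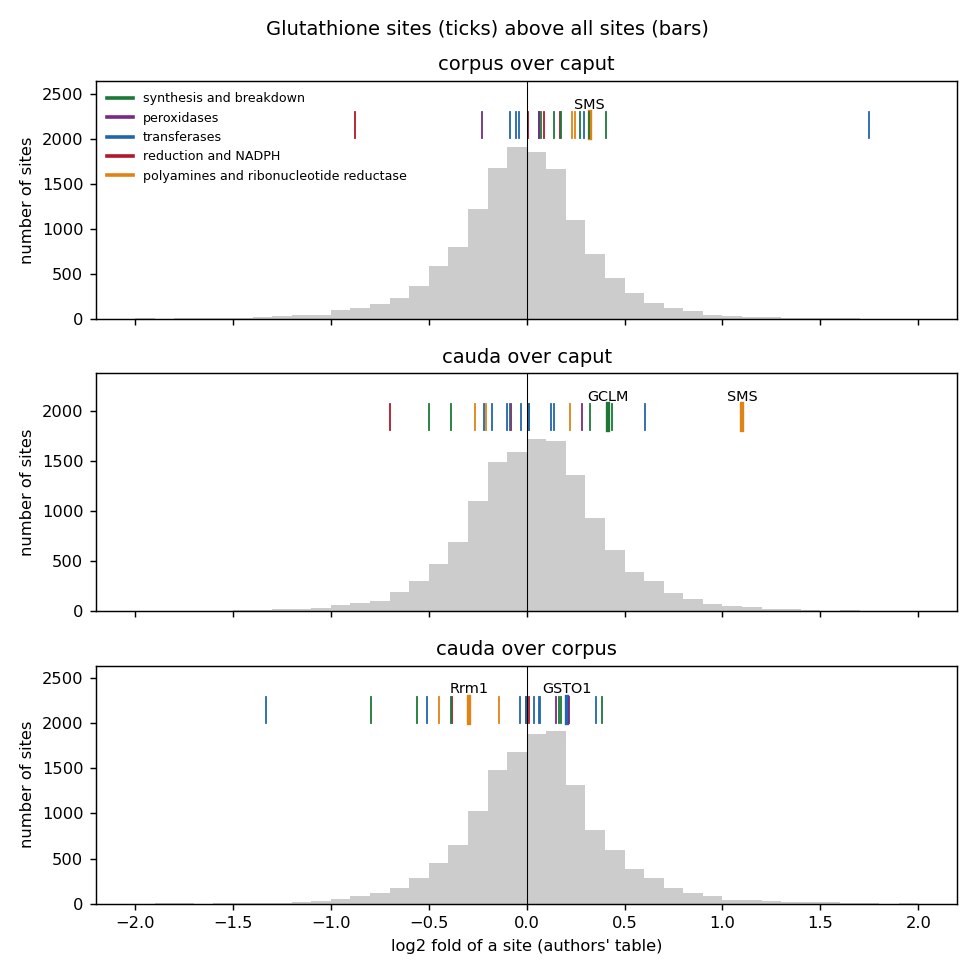
Numbers of sites (y axis) by log2 fold in bins of 0.1 (x axis, from -2 to 2; 40, 31 and 47 sites lie outside), for all sites of each comparison (grey bars), with the sites of the same 24 members as ticks above the bars, coloured by role and thick and named where called. Most ticks lie within the bulk of the bars, and the SMS tick of cauda over caput lies at 1.10.

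Of the members' sites, 5 spans (in GGT6, GSTA1, Gstt3, PRDX6 and Rrm1) were given with the same ends in all 3 tables. For PRDX6, the log2 folds per the authors' deposited table were 0.065 (corpus over caput), 0.22 (cauda over corpus) and 0.28 (cauda over caput). The Rrm1 span ending at 35738538 had 0.23, -0.45 and -0.21 in the same order per the authors' deposited table. In each of the 5 the fold of cauda over caput lay within 0.066 of the sum of the other folds. Over all 1852 such spans, 99.6% lay within 0.1, so the 3 tables are not independent measurements of a span.

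GSTA1 carried the largest absolute folds of the members and the widest spread. Its sites lay on chromosome 24 between 9607485 and 9646705, next to the GSTA4 site at 9537347 to 9538387. The last of them had 1.75 in corpus over caput and -1.33 in cauda over corpus per the authors' deposited table. The GSTA1 span from 9607485 to 9620512 had 0.30, -0.51 and -0.22 (corpus over caput, cauda over corpus, cauda over caput) per the authors' deposited table. Another span, from 9623792 to 9644691, had -0.031 in cauda over caput per the authors' deposited table. None of the GSTA1 sites was called. The cauda list held a GSTA1 peak that ran over 49150 bases with introns, from 9573825 to 9622974. The transferases GSTA1 and GSTA4 belong to a tandem family, and the sources used here do not say how reads shared by copies were counted.

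GSR had its listed candidates in separate peaks in the caput and the corpus. In the caput, 6 candidates lay in a peak on chromosome 28 from 28156867 to 28160910, and 2 of them were classed as m6A sites. In the corpus, 3 candidates lay in a peak from 28130526 to 28134508, with 0 classed, and the cauda list held none. In the authors' deposited table the site near the caput peak had log2 folds over the caput of -0.88 in the corpus and -0.70 in the cauda, and of 0.01 in cauda over corpus, with adjusted p of 0.25, 0.54 and 0.79. The other site had 0.17 (adjusted p = 0.65) in corpus over caput per the authors' deposited table. None of the GSR sites was called.

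GGT6 held the most classed adenosines of the members, 4 of 22 candidates. Its peaks lay on chromosome 19 between 43286319 and 43289765, and none of its sites in the comparisons spanned an intron. A peak that starts at 43288575 held 3 of the 4 classed adenosines, and it was listed in the caput and the corpus but not in the cauda. The fold of that site in cauda over caput was nevertheless positive, 0.32 (adjusted p = 0.42), per the authors' deposited table. A listing is thus not a measured difference. The other classed adenosine, at 43289547, was listed in all 3 regions.

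**Figure D3:**
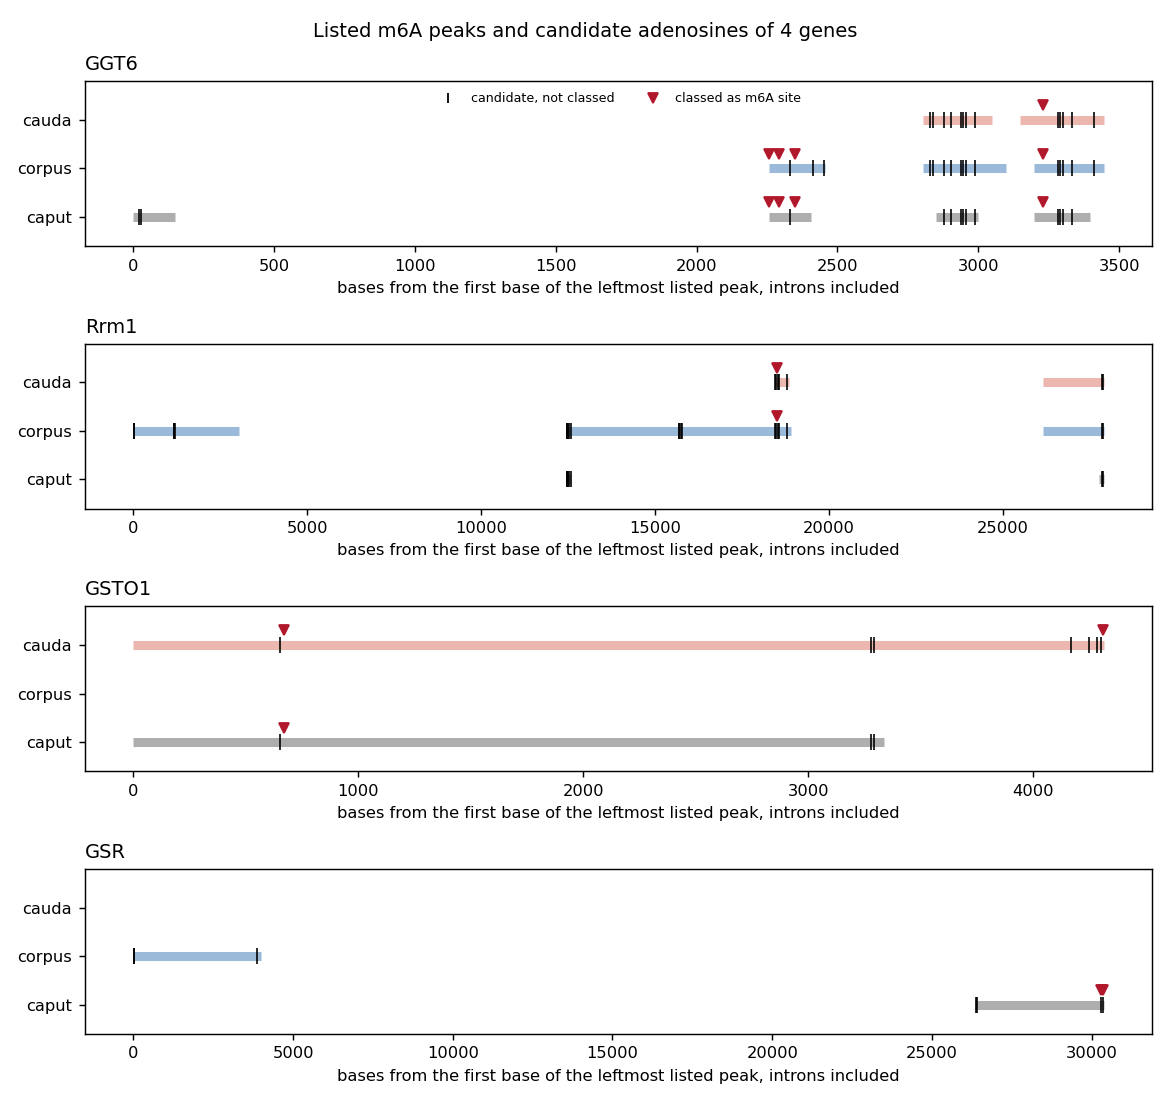
Listed peaks (thick lines, introns included), candidate adenosines not classed as m6A sites (black ticks) and classed ones (red triangles) in the caput, corpus and cauda (y axis), by distance in bases from the first base of the leftmost listed peak (x axis), for GGT6, Rrm1, GSTO1 and GSR. The 3 classed adenosines of 1 GGT6 peak are absent from the cauda row, GSTO1 has no peak in the corpus row, and the caput and corpus peaks of GSR do not overlap.

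The adenosine with the highest score of all members lay in GSTO1, at position 27038300 of chromosome 25, 6 bases before the end of the called site. Its score was 0.72, the only one of the members in the very high confidence class. It was listed in the cauda alone. In the caput the GSTO1 peak ended at 27037328 and held 4 candidates, 1 of them classed, at 27034659. The cauda peak ran to 27038306 and held 9, with 2 classed. The corpus list held no GSTO1 candidate. Over the caput, the GSTO1 site of the cauda had a log2 fold of 0.12 (adjusted p = 0.42) per the authors' deposited table. The called GSTO1 site of cauda over corpus covered 7 candidates of the cauda list and 0 of the corpus list.

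Rrm1 held 22 candidates in the corpus, 7 in the caput and 8 in the cauda. Its called span of cauda over corpus held 15 in the corpus list and 6 in the cauda list. The single classed Rrm1 adenosine, at 35729123 with a score of 0.583, was listed in the corpus and the cauda. GSTA1 had the reverse pattern, with 18 candidates in the cauda and 5 in each of the other regions, although the folds of its sites over the corpus were -1.33, -0.51 and 0.035 per the authors' deposited table. Only candidates inside site spans were counted. A GSTA1 peak of the cauda (from 9573825) and Rrm1 peaks of the corpus and cauda (from 35736781) start before those spans. The counts may therefore be incomplete to a different extent in each region.

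The other members described here had unadjusted p over 0.05 in each comparison that held them. GSTA4 had -0.083 in the corpus and -0.10 in the cauda over the caput, per the authors' deposited table, although its 8 candidates were listed in the caput and the cauda and not in the corpus. The mitochondrial and peroxisomal transferase GSTK1 had -0.041, -0.084 and -0.035 for the 3 comparisons (corpus over caput, cauda over caput, cauda over corpus) per the authors' deposited table. IDH1, cytosolic isocitrate dehydrogenase, had 0.0067 in corpus over caput per the authors' deposited table. The absolute folds of these 3 genes did not exceed 0.1 on the log2 scale. GGCT had 0.14 (adjusted p = 0.99), GPX8 0.15 (adjusted p = 0.77), Gstm5 0.068 (adjusted p = 0.96) and GPX3 -0.23 (adjusted p = 0.38), each in a single comparison, per the authors' deposited table. Gstt4 had 0.61 in cauda over caput and 0.36 in cauda over corpus, with adjusted p of 0.93 and 0.96 per the authors' deposited table. Its site covers 150 bases.

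SMS and GCLM, with the lowest p of the members, had no listed candidate in any region. Both sites span introns, with 201 and 297 bases of RNA in the cauda over caput comparison. Each line of the lists is a candidate, so a peak without one cannot appear in them. Of all sites in that comparison 11.6% had a span without a candidate, and of all called ones 7.01%. GSS, Gstm5 and GPX3 likewise had a site but no candidate assigned to them. The GPX3 span overlaps a site of Tnip1, so its 2 candidates could not be assigned to 1 gene.

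Candidates were listed for 20 members, 16 in the caput, 16 in the corpus and 14 in the cauda. Of all genes in the table, 41.1% had a listed candidate in the caput, 39.5% in the corpus and 40.6% in the cauda. The members listed in all 3 regions were 10, those in 2 regions 6 and those in a single region 4 (Gstt3 and GSTM1 in the caput, Gstt4 and IDH2 in the corpus). Gstt3 shows how little a single listing says of size: its folds over the caput were -0.052 in the corpus and 0.011 in the cauda per the authors' deposited table. Inside their site spans, GSTK1, PRDX6, IDH1 and PGD, with 7, 5, 4 and 3 candidates, had the same ones in every region. Candidates outside those spans were not counted. The IDH1 span equals its caput peak, while its corpus and cauda peaks and the cauda peak of PRDX6 run beyond the spans. For IDH1 and PRDX6 the sameness is thus partly set by the rule. GCLC was also listed in every region, with 4, 4 and 3 candidates and a highest score of 0.527, and 0 was classed.

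**Figure D4:**
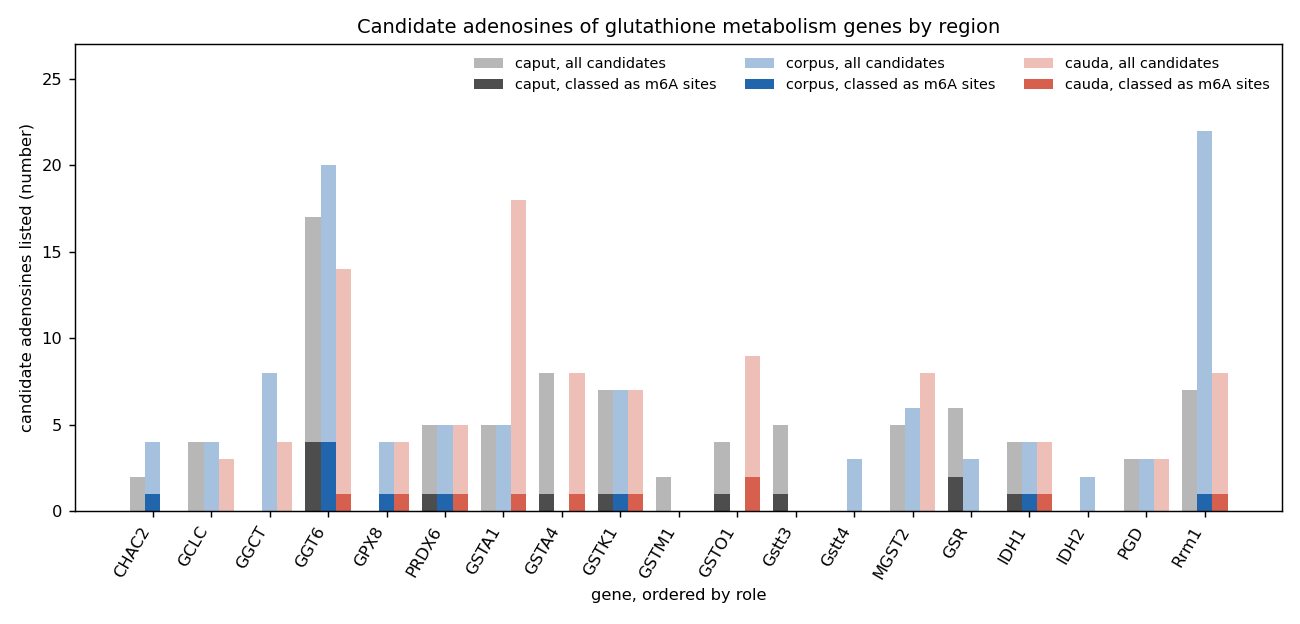
Number of candidate adenosines listed (y axis) for 19 of the 20 members with any (x axis, ordered by role) in the caput, corpus and cauda; pale bars count all candidates and dark bars those classed as m6A sites. GGT6 is high in all 3 regions, Rrm1 in the corpus (22) and GSTA1 in the cauda (18).

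The 154 member candidates included 18 classed as m6A sites (11.7%, 95% Wilson interval 7.52 to 17.7), in 13 genes. Over all 143390 positions the share was 18.7% (18.5 to 18.9). By region the members' share was 14.1% for caput candidates (8.26 to 23.1), 10.6% for corpus ones (6.01 to 18) and 10.4% for cauda ones (5.76 to 18.1). In all lists it was 19.1, 19.3 and 19.1%. The intervals cover counting error only, and candidates of a gene share its sequence, so they are too narrow for a comparison of genes. The 3 regional intervals of the members overlapped. Of the 18 classed adenosines 7 were of low, 7 of moderate, 3 of high and 1 of very high confidence.

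After GSTO1, the highest scores were those of GGT6 (0.667, position 43288669 of chromosome 19), CHAC2 (0.637, 57354565 of chromosome 9), GSTA1 (0.634, 9640078 of chromosome 24) and PRDX6 (0.615, 53526025 of chromosome 14). The PRDX6 adenosine was listed in all 3 regions, the GGT6 one in the caput and corpus, that of CHAC2 in the corpus alone and that of GSTA1 in the cauda alone. Of these 5 genes only GSTO1 had a called site. CHAC2 had log2 folds of 0.074, -0.38 and -0.80 (corpus over caput, cauda over caput, cauda over corpus) per the authors' deposited table, with adjusted p from 0.76 to 0.94. Each of these folds is for a different span, so they are not a series for the gene. The span of cauda over caput ends at 57354456 and does not hold the CHAC2 adenosine named above.

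**Figure D5:**
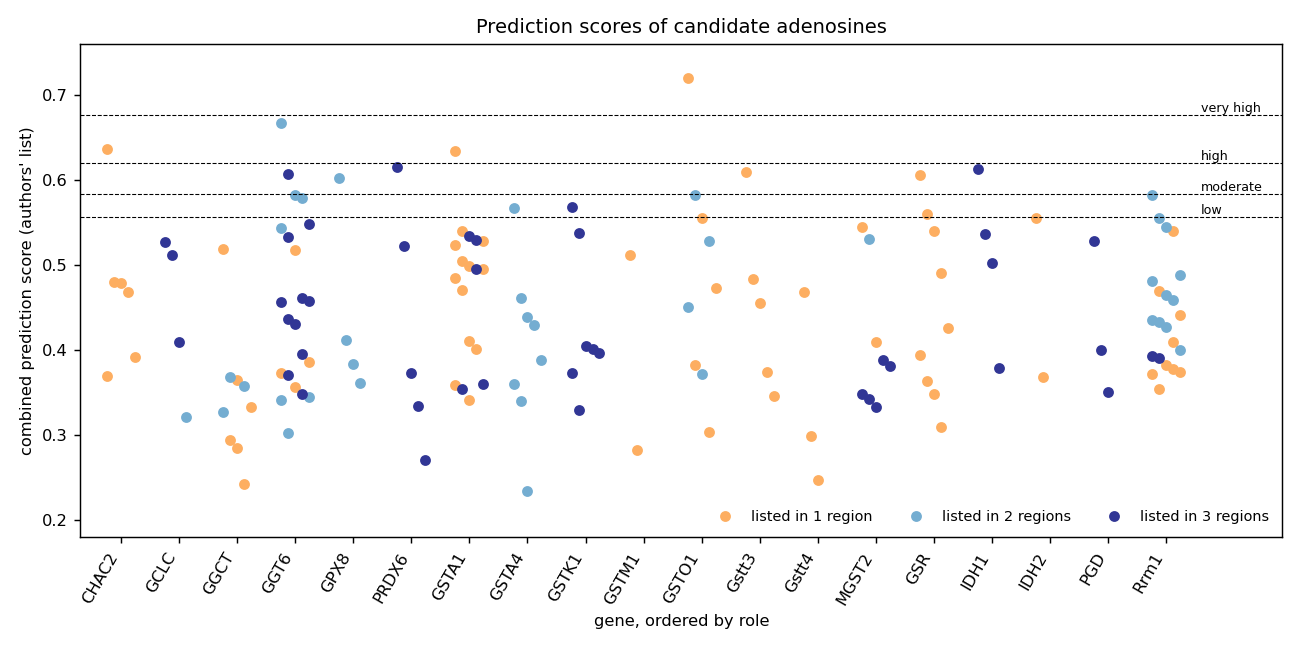
Combined prediction score in the authors' lists (y axis) of each candidate adenosine of 19 members, by gene (x axis, ordered by role), coloured by the number of regions that list it; dashed lines mark the lowest score of each confidence class. A single point, in GSTO1 at 0.72, lies in the very high class, and 17 of 150 points lie at or above 0.557.

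To describe how far the lists overlapped, 46 of the 154 member candidates (29.9%) were in all 3 lists and 69 (44.8%) in 1 list. Over all positions, inside site spans or not, the shares were 45.8% and 31.9%. Of the 69, the corpus list held 31, the cauda list 21 and the caput list 17. They were spread over 13 genes, with the highest numbers in GSTA1 (13), Rrm1 (9) and GSR (9). For peaks, 14 of 21 corpus peaks (66.7%) overlapped a caput peak by at least 1 base, as did 13 of 18 cauda peaks (72.2%), while a corpus peak was overlapped by 14 of 18 peaks of the cauda (77.8%). Over all peaks these shares were 79.1%, 77.6% and 76%. Counted the other way, 70.0% of the 20 caput peaks overlapped a corpus peak and 65.0% a cauda peak, and 66.7% of the corpus peaks overlapped a cauda peak. Over all peaks these were 75.2%, 76.3% and 78.6%.

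Beyond glutathione metabolism, the members shared annotation mostly through the transferases. Of the 55, 18 were also annotated to xenobiotic metabolism by cytochrome P450, and 9 of these had a site. The 10 members of arachidonic acid metabolism had sites in 2. The 4 members of ferroptosis, a form of cell death driven by lipid peroxidation, had sites in 3. Of all members 45.5% had a site, and of all genes 51.1%. These pathways are examples from a longer list, and their counts are too small to show a trait of a pathway.

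Related redox genes outside the members, from a fixed list of 34 (the NRF2 axis, thioredoxin, glutaredoxin, superoxide dismutase and transport genes), had sites in 22 of 46 identifiers. Of all genes, 51.1% had a site. Of the sites of the related genes, 1 of 22 was called in corpus over caput, 1 of 25 in cauda over caput and 0 of 25 in cauda over corpus. Over all sites 2.98%, 2.27% and 1.96% were called in the same order. Single calls like these show no trait of the list or of a family in it. The called ones were in the glutaredoxins, a family of thiol proteins that bind glutathione. GLRX was higher in the corpus than in the caput by 0.25 (adjusted p = 0.014) and GLRX3 higher in the cauda than in the caput by 0.42 (adjusted p = 6.3e-04) per the authors' deposited table. H6PD, an NADPH source of the endoplasmic reticulum that the annotation does not place in this pathway, was named after its values were seen. Of its sites, that on chromosome 14 from 41365945 was higher in the cauda than in the caput by 0.76 (adjusted p = 8.1e-04) and than in the corpus by 0.50 (adjusted p = 0.032) per the authors' deposited table. Its 3 other sites in each of these comparisons were not called, with log2 folds from -0.052 to 0.14 over the caput and from 0.0053 to 0.048 over the corpus per the authors' deposited table.

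Sites of cell type marker genes were described beside those of the members, without use of levels. A site in a marker gene cannot verify the tissue or region label. Principal cell markers had sites in 8 of 15 identifiers, and ELSPBP1, ADAM28 and DEFB119 among them carried called sites. Over the caput, the cauda had 2 called principal cell sites higher and 2 lower: ADAM28 at 0.13, -1.90 and -2.26 and ELSPBP1 at 0.33 per the authors' deposited table. In corpus over caput 2 of 17 sites, both of ADAM28, were called lower (-0.49 and -0.019) per the authors' deposited table. The fold of -0.019 is close to no change, so a call does not by itself mean a sizeable difference. In cauda over corpus ELSPBP1 was higher (0.25) and 2 sites of DEFB119 lower (-0.48 and -0.88) per the authors' deposited table. Markers of other cells had at least 1 called site in each comparison. Of all sites, 2.98% were called in corpus over caput, 2.27% in cauda over caput and 1.96% in cauda over corpus. In corpus over caput, 4 of 8 clear and narrow cell sites were called lower, 0 higher, and 1 of 13 macrophage and lymphocyte sites was called higher. The 4 were in ATP6V1B1 (-1.35), ATP6V1G3 (-0.99), CFTR (-0.98) and FOXI1 (-0.91) per the authors' deposited table. The median of the 8 clear and narrow cell sites was -0.80. A fibroblast site, in PDGFRA, was lower in the cauda than in either other region, and 1 of 5 sperm and spermatid sites, in Akap4, was lower in the corpus than in the caput, with a log2 fold of -0.42 per the authors' deposited table. The median of those 5 sites was 0.14. A basal cell site, in Itga6, was lower in the cauda than in the corpus, and 0 of the smooth muscle sites was called. The 2 erythrocyte identifiers had no site. The part of cell composition in the SMS, GCLM, GSTO1 and Rrm1 differences was not tested.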

How the data were processed

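RIP and input libraries (3 each) from 3 regions of the yak epididymis are described, and the files used hold 1 list per region and 1 table per pair of regions. Per the submitters' processing notes, the tools included deepTools, HISAT2 and Trimmomatic (versions not listed). No source used here names the peak caller, site predictor, differential test or build. The authors deposited, per the file headers, a prediction score for each candidate adenosine, and for each site a ratio (fold) between regions, its log2 value, a p-value and an adjusted p-value.

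The gene table gave symbols and pathways only. Its 9 columns of expression values have codes that match no label and were not used. Positions repeated in a list were counted once with their highest score and assigned to a gene where they lay in the site spans of that gene alone. That held for 84.2% of positions, and the others were counted for no gene. Deposited starts count from 0 (0 positions equal a peak start, 1885 the next base), so starts are printed 1 higher. Folds are read as the first-named over the second-named region, a direction taken from the names of the comparisons and checked against the lists. Member sites with candidates in only 1 of the compared regions did not always have the sign that this direction implies. No test was run on the deposited values: calls are the authors' adjusted p under 0.05. Wilson intervals came from statsmodels 0.14.6. Assignment and overlap were tested on simulated data. The planned motif description was not run, since no sequence or genome was used here. Members, role lists and naming rules were chosen with earlier results of these data known. The naming rule took members with a called site, the 5 lowest p and the 3 highest and 3 lowest folds at an unadjusted p under 0.05 per comparison, 8 enzymes fixed by role, and the highest scores; members outside it were named after their values were seen. For 1 member, values are not reported here by name and are left out of the figures; it stays in the counts and medians.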

Additional observations from a re-analysis of the deposited data

How the results depend on the processing

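The count of called member sites depends on the threshold. It was 1, 2 and 2 (corpus over caput, cauda over caput, cauda over corpus) at an adjusted p under 0.05, and 5, 8 and 7 at an unadjusted p under 0.05. An adjusted p under 0.1 gave 2, 2 and 3. Asking also for a difference of at least 2-fold left 0, 1 and 0, the 1 being SMS. Members taken by symbol gave 1, 3 and 3, the added site being that of H6PD. The median log2 fold of cauda over caput was -0.031, and 0.15 over the 8 unspliced sites, so its sign depends on the sites taken. The median of cauda over corpus was -0.0029 and turned positive, up to 0.035, under each alternative run. That of corpus over caput kept its sign. Members with a classed candidate, in place of any, were 8, 8 and 9 (caput, corpus, cauda) instead of 16, 16 and 14. Counting the high confidence class and above lowered the classed share of candidates to 1.18%, 1.92% and 2.08%, which follows from the stricter class. Overlap of at least 50% of each peak gave 47.6%, 55.6% and 61.1% for members (58.5%, 57.2% and 55.9% for all peaks; corpus with caput, cauda with caput, cauda with corpus). No paired analysis was possible because the tables carry no values per library. For the same reason no library could be left out. The depth behind each site is unknown.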
